A study of Mus musculus with 12 samples.

Results

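The blood lineage transcription factors described here are 10 genes, Lmo2, Tal1, Gata1, Gata2, Runx1, Myb, Cebpa, Cebpb, Gfi1 and Gfi1b, chosen by name for their known roles and found among the 56748 genes of the deposited count table. Their transcripts were measured by RNA sequencing in Ba/F3 cells, a mouse line labelled as pro-B cells that normally needs interleukin-3 (IL-3) to grow. All cells carried NRAS G12D, an active form of a RAS protein, and were put into IL-3-free medium by sorting (day 0) and collected on day 3. The groups differed in the construct: ZsGreen alone (a fluorescent protein, the control), or ZsGreen made from the same transcript as wild-type ETV6 (labelled ETV6 WT), the P214L form or the form with both I209S and P214L (I209S P214L). Each group had 3 libraries. ETV6 is an ETS-family repressor; in the series design P214L creates a nuclear export sequence, I209S is added to break it, and the comparison asks how near I209S P214L cells come to ETV6 WT cells in their transcripts. Nothing in the labels shows the 3 libraries of a group to be separate cultures, and p-values therefore measure the spread between these libraries, which may be technical.

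Lineage factors bind DNA in combination and hold blood cells on one path of differentiation. LMO2 binds no DNA itself and bridges TAL1 with its E-protein partner to GATA1 or GATA2 through LDB1. GATA2 acts in stem and progenitor cells and in mast cells, and GATA1 takes its place at shared sites in red cell and platelet precursors. RUNX1 and MYB are needed for blood stem and progenitor cells, C/EBP alpha and C/EBP beta drive granulocyte and macrophage genes, and GFI1 and GFI1B are zinc finger repressors of myeloid and of red cell and platelet precursors.

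Promoter sequence is shown for Tal1, Gata1, Gata2, Runx1 and Myb, chosen from the factors called in at least 2 comparisons with a window at hand, because ETV6 and several of the factors are themselves DNA-binding proteins. RefSeq windows of build GRCm38.p6, the 250 bases before a transcript start, were at hand for 9 of the 10 genes (13 windows). Lmo2 had none, and the window of Cebpb, whose calls changed when single libraries were left out, is not shown. Tal1, Gata2 and Runx1 had 2 windows each, of which 1 is shown. For Tal1 and Runx1 the window shown is the one with a motif match, and the other window had none. Each is written 5′ to 3′ on the strand of the gene, and capitals mark a motif match. The first Tal1 window (chr4:115056176-115056425, plus strand), the Gata1 window (chrX:7967911-7968160, minus strand), the first Gata2 window (chr6:88193641-88193890, plus strand), the second Runx1 window (chr16:92697330-92697579, minus strand) and the Myb window (chr10:21160985-21161234, minus strand) read as follows.
Tal1: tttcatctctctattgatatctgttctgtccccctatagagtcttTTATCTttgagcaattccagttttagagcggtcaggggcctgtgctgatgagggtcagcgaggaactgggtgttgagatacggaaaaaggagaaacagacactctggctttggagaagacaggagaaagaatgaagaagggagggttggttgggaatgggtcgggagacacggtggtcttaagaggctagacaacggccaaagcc
Gata1: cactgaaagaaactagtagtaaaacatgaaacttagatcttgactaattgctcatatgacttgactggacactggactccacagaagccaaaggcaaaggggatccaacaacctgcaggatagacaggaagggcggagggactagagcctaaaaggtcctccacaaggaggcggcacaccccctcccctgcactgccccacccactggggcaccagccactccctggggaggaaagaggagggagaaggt
Gata2: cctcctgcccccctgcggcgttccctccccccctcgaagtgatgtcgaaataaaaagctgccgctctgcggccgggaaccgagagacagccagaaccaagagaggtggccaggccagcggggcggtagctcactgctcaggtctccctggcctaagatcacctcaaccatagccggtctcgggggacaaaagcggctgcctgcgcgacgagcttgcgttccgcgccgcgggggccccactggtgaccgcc
Runx1: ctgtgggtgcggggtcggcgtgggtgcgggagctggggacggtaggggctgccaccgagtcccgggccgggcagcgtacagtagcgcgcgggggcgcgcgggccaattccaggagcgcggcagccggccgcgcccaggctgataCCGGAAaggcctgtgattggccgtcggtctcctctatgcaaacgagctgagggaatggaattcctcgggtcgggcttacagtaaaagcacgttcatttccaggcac
Myb: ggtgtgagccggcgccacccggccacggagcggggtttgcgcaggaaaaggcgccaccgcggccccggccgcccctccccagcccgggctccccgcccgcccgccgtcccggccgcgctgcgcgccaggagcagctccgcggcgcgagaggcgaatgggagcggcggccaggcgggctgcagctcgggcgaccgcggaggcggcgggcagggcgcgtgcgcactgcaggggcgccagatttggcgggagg
The ETS motif CCGGAA (or TTCCGG on the other strand) was in 12.03% of 32851 windows of the same length and, of the 13 member windows, in 1, the Runx1 window above, starting 106 bases before the start. The GATA motif AGATAA (or TTATCT) was in 9.99% of all windows and in 1 member window, the Tal1 window above, starting 205 bases before the start. The RUNX motif TGTGGT (or ACCACA) was in 14.05% of all windows, the MYB motif AACTGAC (or GTCAGTT) in 2.43% and the E-box CAGATG (or CATCTG) in 14.4%, and none of these was in a member window. A match is a description of the letters and not a binding site, and the windows differed in composition. The Myb window was 81.2% G and C, the Tal1 window shown 48.8% and the other Tal1 window 62.8%, against a median of 52.4% over all windows.

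Total counts per library lay between 14301683 and 18607595. Of 16 B lineage markers, 7 had no count in any library, among them Igll1, Rag1, Dntt and Il7r, and only Ptprc, Cd79b and Cd79a reached a mean of 1 CPM, so most defining markers of the labelled cell type were absent or near 0. The summed level of 7 fibroblast markers was at most 0.508 CPM and that of 8 T lineage markers at most 4.16 CPM. Etv6 was at 81.7 ± 5.03 CPM with ZsGreen and rose with each construct, to 109 ± 11.4 (ETV6 WT), 103 ± 4.64 (P214L) and 99.1 ± 12 (I209S P214L; SD, n = 3), where reads of the construct and of the cells' own gene are not separated. The first ETV6 WT and the first I209S P214L library had the lowest shares of counts from 18S ribosomal RNA, 1.58% and 1.35%, against 2.92% to 5.90% in the other 10. An earlier analysis found these libraries and ZsGreen 1 apart from the rest. For several members the results are given also without them. For the partners, relatives and targets of the members they are not.

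Levels of different genes are compared as FPKM, which divides by gene length and library total, and were led by Gata2. Its mean over the 12 libraries was 402 FPKM, above 99.2% of the tested genes. Tal1 followed at 132, Cebpb at 59.7, Myb at 44.8, Gfi1b at 39.4, Gata1 at 25.3, Lmo2 at 20.5 and Runx1 at 11.5 FPKM. In each group the libraries of Gata2 lay above those of Tal1, and those of Tal1 above those of Cebpb. Lower in the order the places changed. With ZsGreen, Gfi1b (36.8 ± 3.48 FPKM), Lmo2 (35.8 ± 3.45) and Myb (31.4 ± 1.04) were neighbours whose libraries overlapped from 1 gene to the next. With I209S P214L, Lmo2 (6.79 ± 0.404 FPKM) lay below Runx1 (12.8 ± 0.881), with no overlap.

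The other members were near or at 0. Cebpa had no count in any of the 12 libraries, which allows at most 0.0152 CPM over all of them and at most 0.0569 to 0.0643 CPM in a group, where 3 counts is the limit that a count of 0 allows. Gfi1 had 15 counts in 5 of the 12 libraries, 5 in ZsGreen libraries, 0 in ETV6 WT, 8 in P214L and 2 in I209S P214L libraries. Neither passed the filter on low counts, so 8 of the 10 members were tested. At this depth no difference of Cebpa or Gfi1 between groups could be assessed. These limits cover counting error only.

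With ETV6 WT, 7 of the 8 tested members differed from ZsGreen at an adjusted p under 0.05 in edgeR's quasi-likelihood test, where 37.7% of all tested genes did. Myb, Runx1, Cebpb, Gata2 and Tal1 rose and Lmo2 and Gata1 fell. The libraries of these 7 members did not overlap those with ZsGreen, as in 46.2% of all genes. The median size of the change was 0.50 on the log2 scale for the members and 0.38 for all genes. With I209S P214L the same counts were found, 5 higher and 2 lower, beside 41.5% of all genes, with medians of 0.49 and 0.40, and again 7 members without overlap, beside 47.8%. With P214L only Myb and Runx1 passed the test, both higher, beside 5.08% of all genes (3.47% higher), and the medians were 0.09 and 0.17. There 4 members did not overlap, beside 25.7% of all genes. These 3 comparisons share the ZsGreen libraries. In bulk RNA fewer cells with a transcript and less of it per cell cannot be told apart. All changes below are log2 fold changes from this fit with their standard errors, levels are CPM scaled by TMM, and adjusted p-values run over all 14794 tested genes.

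**Figure D1:**
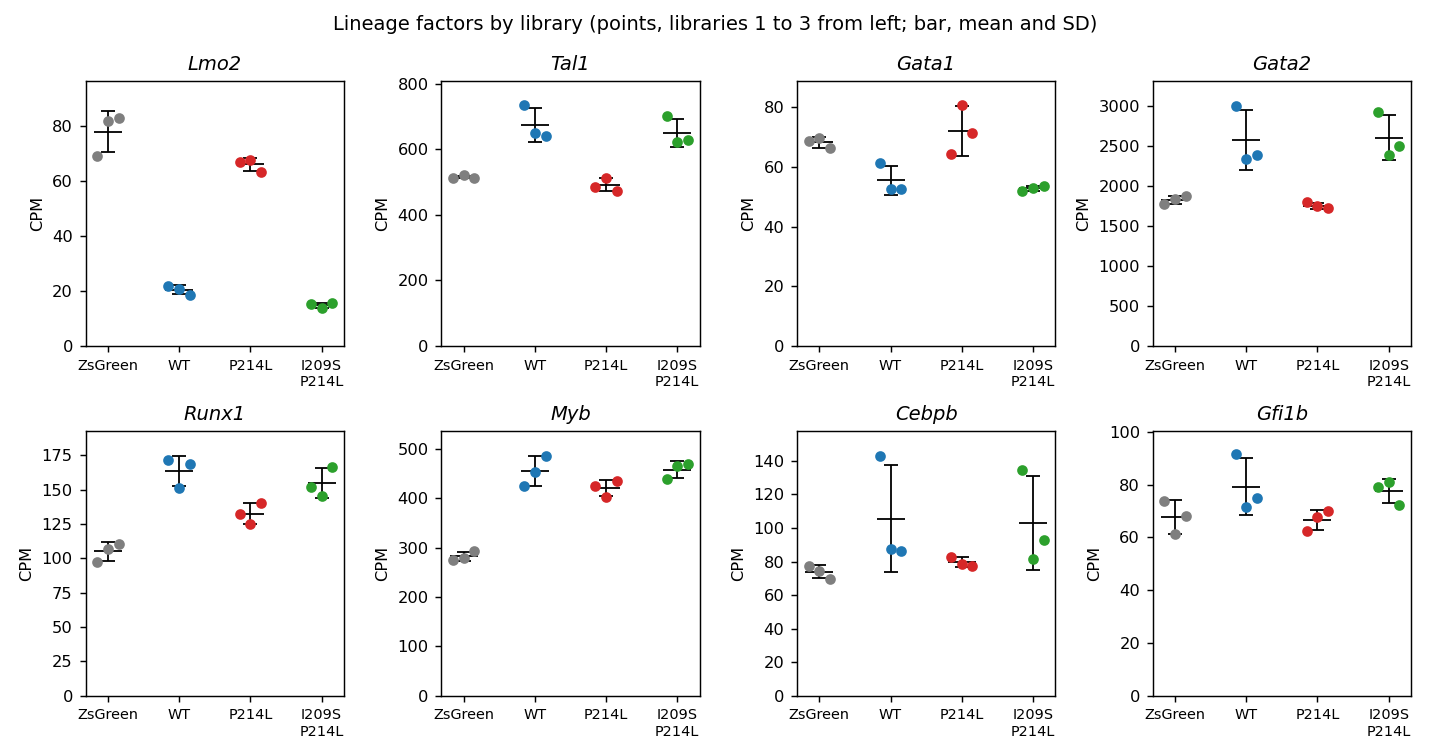
Level of the 8 tested factors in CPM (y axis, from 0) in each library, by group (x axis), with libraries 1 to 3 from left to right as points and the mean and SD of the 3 libraries as a bar. Lmo2 lies between 13.7 and 22.0 CPM in the ETV6 WT and I209S P214L libraries and between 63.4 and 83.0 CPM in the others, while Myb lies higher in all 9 ETV6 libraries than in the 3 ZsGreen libraries.

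Lmo2, the bridging LIM protein (chromosome 2, 103788331 to 103812223, mm39), changed most. Its level was 69.2, 81.7 and 83.0 CPM in the ZsGreen libraries, 22.0, 20.9 and 18.7 for ETV6 WT, 66.9, 67.6 and 63.4 for P214L and 15.2, 13.7 and 15.5 for I209S P214L. The 4 groups did not overlap. Lmo2 fell 3.80-fold with ETV6 WT (-1.93 ± 0.10 on the log2 scale, adjusted p = 9.81e-11 in edgeR) and 5.27-fold with I209S P214L (-2.40 ± 0.10, adjusted p = 6.749e-12). With P214L all 3 libraries lay below those with ZsGreen, as in 12.2% of all genes, and the difference of -0.24 ± 0.10 did not pass the test in edgeR (adjusted p = 0.1751). It did pass without ZsGreen 1, ETV6 WT 1 and I209S P214L 1 together (-0.32, adjusted p = 0.03714 in edgeR). With only 1 library left out, it passed in none of 12 fits (adjusted p = 0.07587 to 0.4088 in edgeR). A gene on the opposite strand, 4931422A03Rik, overlaps Lmo2, and its counts over all libraries amounted to 3.30% of those of Lmo2. Its mean was 1.20 CPM for ZsGreen, 2.07 for ETV6 WT, 1.84 for P214L and 0.669 for I209S P214L. In the same order Lmo2 was at 78.0, 20.5, 66.0 and 14.8 CPM. 4931422A03Rik passed the test in edgeR in none of the 6 comparisons. Its I209S P214L libraries lay below those of the other ETV6 constructs without overlap, as for Lmo2. The part of this gene in the Lmo2 counts was not tested.

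Tal1 encodes the basic helix-loop-helix factor that LMO2 binds (chromosome 4, 114913623 to 114928952). Its level was 514, 521 and 513 CPM for ZsGreen, 736, 651 and 640 for ETV6 WT, 487, 513 and 474 for P214L and 701, 622 and 629 for I209S P214L. The ETV6 WT and I209S P214L libraries were all above the other 6. Tal1 rose by 0.39 ± 0.07 with ETV6 WT (adjusted p = 0.0001554 in edgeR) and by 0.34 ± 0.07 with I209S P214L (adjusted p = 0.000557), and differed by -0.07 ± 0.07 with P214L (adjusted p = 0.6495). The first library was the highest of its group with ETV6 WT and with I209S P214L. Without these libraries and ZsGreen 1, the rises were 0.31 and 0.26 and still passed the test (adjusted p = 0.0002775 and 0.001112 in edgeR).

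Gata2, the progenitor and mast cell GATA factor (chromosome 6, 88170873 to 88184014), moved in the same direction as Tal1. The ZsGreen libraries held 1773, 1838 and 1866 CPM, those with ETV6 WT 2998, 2331 and 2384, those with P214L 1793, 1750 and 1717 and those with I209S P214L 2917, 2384 and 2492. Again the ETV6 WT and I209S P214L libraries stood above the other 6. The rise was 0.49 ± 0.09 with ETV6 WT (adjusted p = 0.0001578 in edgeR) and 0.51 ± 0.09 with I209S P214L (adjusted p = 0.0001022). With P214L the difference was -0.06 ± 0.09 (adjusted p = 0.7846 in edgeR). Here too the first library was the highest of both groups, and without the 3 libraries that stand apart the rises were 0.34 and 0.38 (adjusted p = 2.389e-05 and 4.486e-06 in edgeR).

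Gata1, the GATA factor of red cell and platelet precursors (chromosome X, 7825499 to 7844310), went the other way. Its level was 68.8, 69.8 and 66.2 CPM for ZsGreen, 61.2, 52.7 and 52.5 for ETV6 WT, 64.2, 80.7 and 71.5 for P214L and 52.0, 52.9 and 53.8 for I209S P214L. The ETV6 WT and I209S P214L libraries were all below the other 6. It fell by 0.30 ± 0.09 on the log2 scale with ETV6 WT (adjusted p = 0.01338 in edgeR) and by 0.37 ± 0.09 with I209S P214L (adjusted p = 0.00307), and differed by 0.08 ± 0.09 with P214L (adjusted p = 0.7092). Without ETV6 WT 2 the fall with ETV6 WT did not pass the test (adjusted p = 0.0638 in edgeR).

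Transcript ratios among these 4 genes are given as a description, with no test of their own. The ratio of Gata2 to Gata1 in FPKM was 12.1 ± 0.569 for ZsGreen, 20.9 ± 1.11 for ETV6 WT, 11.1 ± 1.43 for P214L and 22.2 ± 2.73 for I209S P214L (SD, n = 3). The ratio of Tal1 to Lmo2 was 3.29 ± 0.332, 16.3 ± 0.789, 3.68 ± 0.0792 and 21.8 ± 1.47 in the same order. In both ratios the ETV6 WT and I209S P214L libraries lay above the other 6. Gata1 made up 7.65% of the summed FPKM of Gata1, Gata2 and Gata3 for ZsGreen, 4.58% for ETV6 WT, 8.35% for P214L and 4.35% for I209S P214L.

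**Figure D2:**
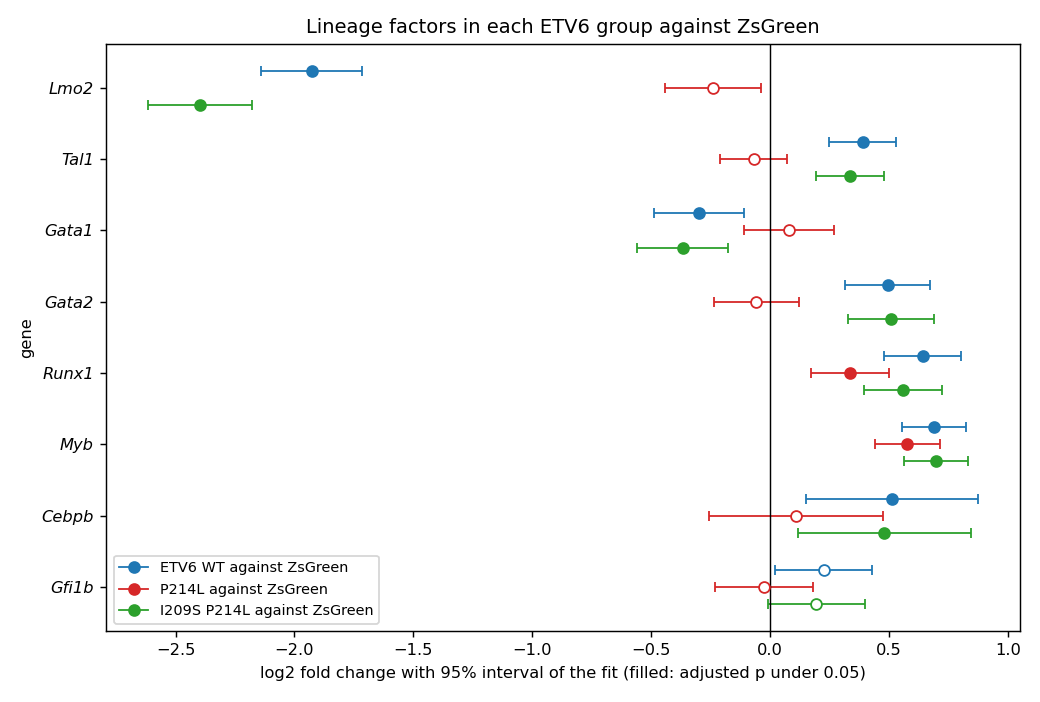
Log2 fold change of each tested factor (y axis) against ZsGreen with the 95% interval of the fit (x axis) for ETV6 WT, P214L and I209S P214L; filled points have an adjusted p under 0.05. Only Runx1 and Myb have 3 filled points, while Lmo2, Tal1, Gata1 and Gata2 have filled points for ETV6 WT and I209S P214L and an open point near 0 for P214L, at -0.24 for Lmo2.

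Myb, which keeps progenitors dividing (chromosome 10, 21000834 to 21036883), rose with every construct. It was at 275, 279 and 293 CPM for ZsGreen, 425, 454 and 486 for ETV6 WT, 424, 403 and 435 for P214L and 438, 465 and 470 for I209S P214L. All 9 ETV6 libraries were above the 3 ZsGreen libraries. The rises were 0.69 ± 0.06, 0.58 ± 0.06 and 0.70 ± 0.06 in that order (adjusted p = 1.563e-07, 2.655e-05 and 1.089e-07 in edgeR). The difference between P214L and ETV6 WT was -0.11, with a 95% interval from -0.25 to 0.02, and did not pass the test (adjusted p = 0.2162). It did pass without ZsGreen 1, ETV6 WT 1 and I209S P214L 1 together (-0.15, adjusted p = 0.04845 in edgeR). With only 1 library left out, it passed in none of 12 fits (adjusted p = 0.07781 to 0.6167 in edgeR).

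Runx1, the core-binding factor (chromosome 16, 92398354 to 92623037), also rose in each group, with P214L in between. Its level was 97.6, 107 and 111 CPM for ZsGreen, 172, 151 and 168 for ETV6 WT, 132, 125 and 140 for P214L and 152, 145 and 167 for I209S P214L. The P214L libraries lay above all ZsGreen libraries and below all those of the other constructs. The rises were 0.64 ± 0.08, 0.33 ± 0.08 and 0.56 ± 0.08 (adjusted p = 3.434e-06, 0.01599 and 1.37e-05 in edgeR). The rise with P214L did not pass the test without ZsGreen 1, P214L 1 or P214L 3 (0.27, 0.33 and 0.28, adjusted p = 0.08711, 0.06363 and 0.1084 in edgeR). Counts are per gene, so they do not tell which of the Runx1 starts gave the transcripts.

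Cebpb, a C/EBP factor of inflammatory and myeloid genes (chromosome 2, 167530835 to 167532338), had rises whose size and calls changed when single libraries were left out. Its level was 77.4, 74.6 and 69.8 CPM for ZsGreen, 142.6, 87.7 and 86.5 for ETV6 WT, 83.0, 78.7 and 77.5 for P214L and 134.6, 81.2 and 93.0 for I209S P214L. The first ETV6 WT and the first I209S P214L library were far above the others. The rises of 0.51 ± 0.17 and 0.48 ± 0.17 passed the test in edgeR (adjusted p = 0.02504 and 0.03284). Without ETV6 WT 1 the first was 0.24 (adjusted p = 0.2006 in edgeR), and without I209S P214L 1 the second was 0.24 (adjusted p = 0.2333). Both also missed the threshold without ZsGreen 2 or without ZsGreen 3, and the second without ZsGreen 1 (adjusted p = 0.05932 to 0.1025 in edgeR). Without ZsGreen 1, ETV6 WT 1 and I209S P214L 1 together, both were 0.26 and passed the test (adjusted p = 0.02037 and 0.01948 in edgeR).

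Peds1, a gene on the opposite strand that overlaps Cebpb and was looked up for that reason after the values were seen, had counts that amounted to 54.7% of those of Cebpb. Peds1 rose by 0.78 ± 0.11 with ETV6 WT and by 0.70 ± 0.11 with I209S P214L (adjusted p = 1.913e-05 and 5.121e-05 in edgeR). The 54.7% compares totals of the whole genes and not reads of the overlap. Whether the counting used strand is not given in the sources used here, so how reads of the overlap were counted is not known. The difference of Cebpb with P214L was 0.11 ± 0.17 (adjusted p = 0.8073 in edgeR).

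Gfi1b, the GFI factor of red cell and platelet precursors (chromosome 2, 28499462 to 28511994), passed the test in none of the 6 comparisons as fitted to all libraries. Its libraries held 73.8, 61.2 and 68.2 CPM for ZsGreen, 91.4, 71.5 and 74.8 for ETV6 WT, 62.2, 67.7 and 69.8 for P214L and 79.2, 81.0 and 72.4 for I209S P214L. The ZsGreen libraries overlapped those of each other group. The differences from ZsGreen were 0.23 ± 0.10, -0.02 ± 0.10 and 0.19 ± 0.10 (adjusted p = 0.07736, 0.9367 and 0.1224 in edgeR). The 95% interval with ETV6 WT ran from 0.02 to 0.43. This difference passed the test without ETV6 WT 2 (0.30, adjusted p = 0.03831 in edgeR) and without the filter on low counts (0.25, adjusted p = 0.04071). Without ZsGreen 1, ETV6 WT 1 and I209S P214L 1 together it was 0.17 and did not pass (adjusted p = 0.1817 in edgeR). Gfi1b made up at least 99.7% of the summed FPKM of Gfi1 and Gfi1b in every library.

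Between the ETV6 groups, P214L differed from ETV6 WT in 5 of the 8 tested members, beside 29.2% of all genes, and 7 did not overlap, beside 45.4%. Lmo2 (1.69 ± 0.10) and Gata1 (0.38 ± 0.09) were higher with P214L, and Gata2 (-0.55 ± 0.09), Tal1 (-0.46 ± 0.07) and Runx1 (-0.31 ± 0.08) were lower (adjusted p = 6.956e-10 to 0.005431 in edgeR). Cebpb and Gfi1b had lower P214L libraries with no overlap, as in 22.9% of all genes, and did not pass the test (-0.40 and -0.25, adjusted p = 0.08941 and 0.06278 in edgeR). Without ETV6 WT 2 both passed (-0.52 and -0.32, adjusted p = 0.04718 and 0.03387 in edgeR), and Cebpb also passed without ETV6 WT 3 or I209S P214L 1 (adjusted p = 0.03575 and 0.03224).

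I209S P214L differed from P214L in the same 5 members, beside 33.0% of all genes, with each sign turned. In 7 members the libraries did not overlap, beside 48.2% of all genes. Lmo2 was lower by 2.16 ± 0.10 and Gata1 by 0.45 ± 0.09 on the log2 scale, and Gata2 was higher by 0.57 ± 0.09, Tal1 by 0.40 ± 0.07 and Runx1 by 0.22 ± 0.08 (adjusted p = 3.488e-11 to 0.03198 in edgeR). The Runx1 difference did not pass the test without P214L 1, P214L 2 or I209S P214L 3 (0.21, 0.18 and 0.17, adjusted p = 0.09443 to 0.1675 in edgeR). Cebpb, not called here, passed without ETV6 WT 1 or I209S P214L 2 (0.37 and 0.51, adjusted p = 0.02535 and 0.03784 in edgeR).

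I209S P214L against ETV6 WT gave no member past the threshold in edgeR, beside 0.0338% of all genes. At an unadjusted p under 0.05 it gave 1 member, Lmo2, beside 3.46% of all genes, and DESeq2 and limma-voom gave no member at an adjusted p under 0.05. Lmo2 alone had libraries without overlap, beside 8.33% of all genes, and was lower with I209S P214L, as were 4.38%. Its difference was -0.47 with a 95% interval from -0.69 to -0.25 (unadjusted p = 0.0003331, adjusted p = 0.4211 in edgeR). For the other 7 the differences lay between -0.08 (Runx1) and 0.01 (Gata2). Their intervals reached from -0.24 to 0.08 for Runx1, from -0.16 to 0.19 for Gata2, from -0.13 to 0.14 for Myb and from -0.39 to 0.33 for Cebpb, so differences of these sizes remain possible.

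**Figure D3:**
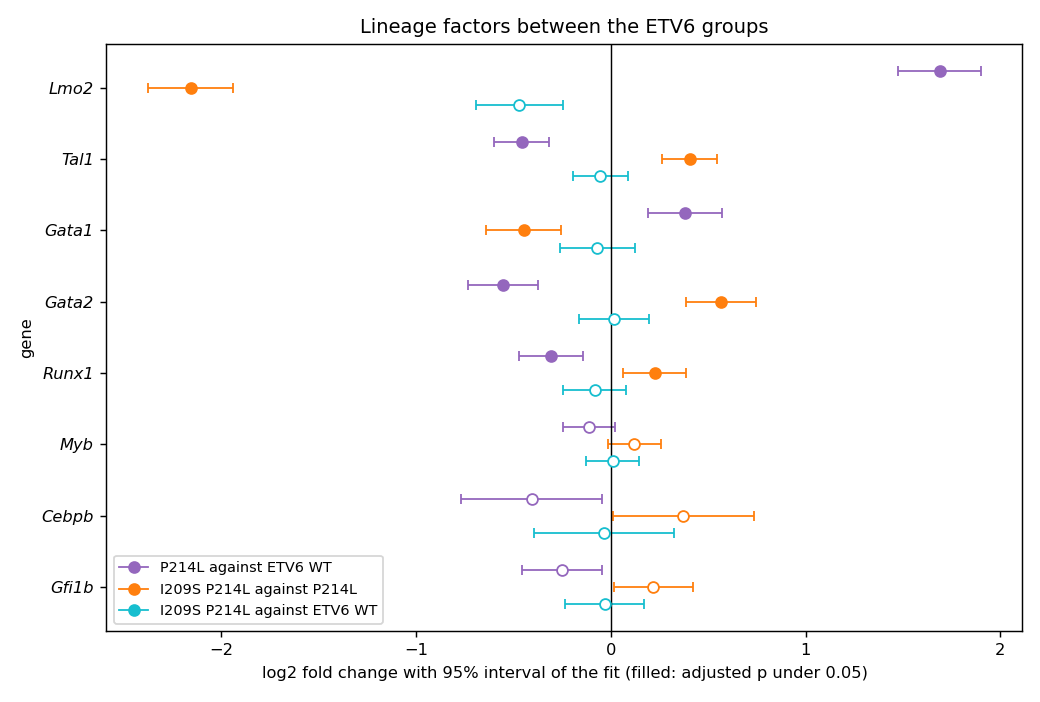
Log2 fold change of each tested factor (y axis) between the ETV6 groups with the 95% interval of the fit (x axis); filled points have an adjusted p under 0.05. The points of P214L against ETV6 WT and of I209S P214L against P214L lie on opposite sides of 0 for all 8 factors, in comparisons that share the P214L libraries, and all points of I209S P214L against ETV6 WT are open.

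Partners of the bridged complex and of these factors were read from 1 list of 18 genes, of which 13 were tested. The list includes Erg, Fli1 and Zfpm1, whose values follow in the next paragraph. With ETV6 WT 5 were higher and 4 lower, with P214L 1 (Fli1) was higher, and with I209S P214L 5 were higher and 5 lower. Among all tested genes 37.7%, 5.08% and 41.5% were called in these comparisons, in the same order. The list's medians were -0.003, -0.07 and -0.13, against 0.03, 0.01 and 0.03 over all genes. Lyl1, the close relative of Tal1, rose with ETV6 WT and I209S P214L as Tal1 did (0.54 ± 0.07 and 0.48 ± 0.07, adjusted p = 4.063e-06 and 1.431e-05 in edgeR). Ldb1, the dimerizing partner of LMO2, rose by 0.33 ± 0.09 and 0.35 ± 0.09 (adjusted p = 0.009319 and 0.005111 in edgeR). Ssbp3, which stabilizes LDB1, went from 135 ± 3.06 to 299 ± 26.6 and 298 ± 22.2 CPM (1.15 and 1.14 on the log2 scale, adjusted p = 3.757e-09 and 2.944e-09 in edgeR). Among the E-proteins that pair with TAL1, Tcf12 rose (0.36 and 0.49), Tcf4 fell (-0.40 and -0.36) and Tcf3 differed by -0.003 and -0.09, short of the threshold. With P214L none of these 6 genes passed the test.

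Other ETS genes act beside these factors in stem cells or myeloid cells. Erg fell from 13.8 ± 0.262 to 2.92 ± 0.160 CPM with ETV6 WT and to 2.29 ± 0.542 with I209S P214L (-2.24 ± 0.20 and -2.57 ± 0.21, adjusted p = 1.105e-07 and 2.294e-08 in edgeR), and was 16.7 ± 2.90 with P214L. Fli1 rose with all 3 constructs (0.41, 0.38 and 0.39, adjusted p = 0.0001198, 0.00282 and 0.0001587 in edgeR). So did Spi1, which encodes PU.1, an antagonist of GATA1 (0.78, 0.43 and 0.73, adjusted p = 7.463e-07, 0.004037 and 1.31e-06 in edgeR). The FPKM ratio of Spi1 to Gata1 was 1.96 ± 0.0962 for ZsGreen, 4.14 ± 0.101 for ETV6 WT, 2.54 ± 0.409 for P214L and 4.21 ± 0.222 for I209S P214L. Zfpm1, which encodes the GATA1 cofactor FOG1, fell with ETV6 WT and I209S P214L (-0.27 and -0.41, adjusted p = 0.0359 and 0.002171 in edgeR). Its ETV6 WT libraries, at 993, 695 and 790 CPM, overlapped those with ZsGreen, at 986 to 1007 CPM. With P214L the difference was -0.31, short of the threshold (adjusted p = 0.07718 in edgeR). All P214L libraries lay below those with ZsGreen, as in 12.2% of all genes.

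Close relatives of the members moved in both directions, and the make-up of the families differed between the groups. Runx2 rose with all 3 constructs (1.01, 0.44 and 1.05) and Runx3 fell with ETV6 WT and I209S P214L (-0.62 and -0.75), as did Cbfb, the shared partner subunit (-0.27 and -0.32). Runx1 held 39.6% of the RUNX FPKM for ZsGreen, 50.9% for ETV6 WT, 44.3% for P214L and 50.2% for I209S P214L. In the MYB family Mybl2, a cell cycle factor, fell from 108 ± 8.39 to 58.3 ± 6.27 and 51.4 ± 3.67 CPM with ETV6 WT and I209S P214L (adjusted p = 3.019e-07 and 2.777e-08 in edgeR). Myb, which itself rose with each construct, held 56.1% of the family FPKM for ZsGreen, 78.6% for ETV6 WT, 67.1% for P214L and 80.8% for I209S P214L. Lmo4 fell with ETV6 WT and I209S P214L (-0.30 and -0.35), and the share of Lmo2 in the LMO family went from 65.0% with ZsGreen to 37.7%, 59.0% and 31.2%.

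**Figure D4:**
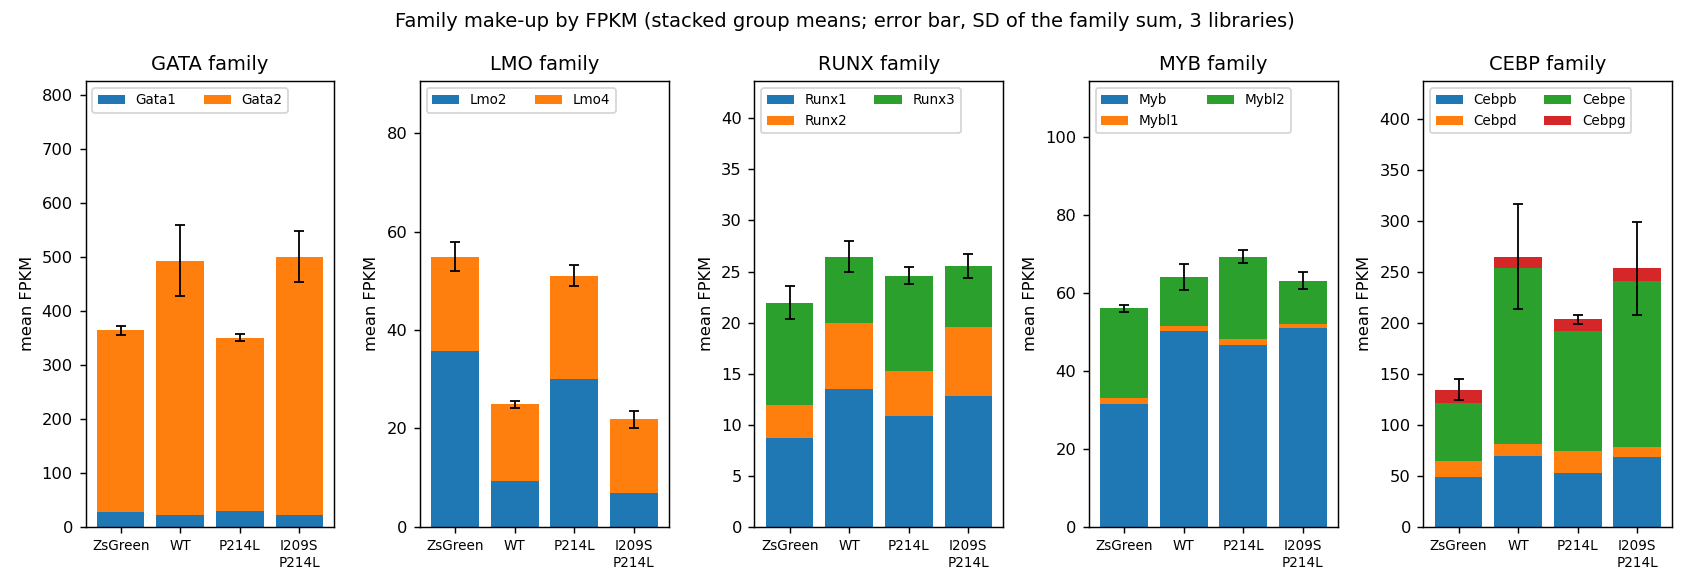
Mean FPKM of family members (y axis, stacked from 0) in each group (x axis) for the GATA, LMO, RUNX, MYB and C/EBP families, with the SD of the family sum over 3 libraries as error bar; members whose group means never passed 0.5 FPKM are not drawn. Gata2 makes up 91.6% to 95.7% of its family, and Cebpe is the largest part of the C/EBP family in each group.

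The C/EBP family was led by Cebpe, the factor of late granulocyte maturation, and not by a member. Cebpe went from 70.9 ± 11.2 CPM for ZsGreen to 217 ± 41.9 for ETV6 WT, 149 ± 3.39 for P214L and 204 ± 32.8 for I209S P214L, and rose in all 3 (1.62, 1.07 and 1.53, adjusted p = 4.123e-08, 8.253e-05 and 6.167e-08 in edgeR). It held 42.1%, 65.3%, 58.1% and 64.7% of the family FPKM, and Cebpb 36.4%, 25.9%, 25.7% and 26.6%. Cebpd fell with ETV6 WT and I209S P214L (-0.47 and -0.69) and differed by 0.44 with P214L, short of the threshold (adjusted p = 0.09796 in edgeR).

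Known targets of the factors were read from lists and split by group. Of 14 C/EBP granulocyte targets 9 were tested. With ETV6 WT 8 were lower and 1 higher, with I209S P214L 8 lower and 1 higher, and with P214L 5 were higher and none lower. Over all tested genes 37.7%, 41.5% and 5.08% were called in these comparisons, in the same order. The 1 higher gene with ETV6 WT was Cebpe itself. S100a9, a granulocyte calcium-binding protein, had 324 counts in the ZsGreen libraries, 3 in those of ETV6 WT, 1229 in those of P214L and 11 in those of I209S P214L. Ngp, a neutrophil granule protein, was at 13.7 ± 1.35, 2.85 ± 0.701, 30.3 ± 1.04 and 1.45 ± 0.468 CPM in that order. The summed level of 11 neutrophil and monocyte markers, which share genes with this list, was 53.3 to 63.1 CPM for ZsGreen, 126 to 143 for ETV6 WT, 138 to 214.1 for P214L and 93.7 to 135 for I209S P214L, with Ly6g and Csf3r at 0 in all libraries. Most of the sum with ETV6 WT and I209S P214L was Adgre1, the macrophage marker F4/80, at 127 ± 8.88 and 109 ± 19.9 CPM against 19.9 ± 1.80 with ZsGreen and 52.0 ± 10.6 with P214L. The other 10 markers summed to 33.1 to 41.5 CPM for ZsGreen, 5.43 to 5.59 for ETV6 WT, 94.7 to 150.1 for P214L and 3.00 to 6.14 for I209S P214L. Of 8 tested markers, 6 were lower and 1, Adgre1, higher with ETV6 WT and again with I209S P214L, and 5 were higher with P214L. These counts stand beside the same shares of all tested genes, 37.7%, 41.5% and 5.08%. The part of these markers in the result was not tested.

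Targets of GATA1 and TAL1 did not move one way. Of 11 tested erythroid targets, 5 were higher and 3 lower with ETV6 WT, 4 higher and 3 lower with I209S P214L and none passed the test with P214L in edgeR. The shares of all tested genes called were 37.7%, 41.5% and 5.08% in that order. Hba-a1, an alpha globin with a near-identical copy that can share its reads, went from 35.1 ± 4.65 to 235 ± 52.3 and 275 ± 67.8 CPM with ETV6 WT and I209S P214L. Tfrc, the transferrin receptor, went from 330.0 ± 8.62 to 183 ± 3.90 and 178 ± 1.03 CPM. Klf1, the erythroid Kruppel factor, was at 41.0 ± 4.90, 24.1 ± 3.91, 40.9 ± 6.50 and 19.1 ± 3.49 CPM over the 4 groups.

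Of 8 tested megakaryocyte targets, 1 was higher and 3 lower with ETV6 WT, 4 were lower with P214L and 3 lower with I209S P214L. Pf4, platelet factor 4, fell with all 3 constructs, from 22.3 ± 6.85 CPM to 2.92 ± 0.225, 6.28 ± 0.185 and 2.60 ± 0.569. Of 6 tested mast cell targets of GATA2, 3 were higher and 2 lower with ETV6 WT, 3 higher and 1 lower with I209S P214L, and none passed the test with P214L. Mitf, a mast cell factor, went from 6.87 ± 2.11 to 34.6 ± 0.816 and 37.8 ± 2.68 CPM, and Cma1, a mast cell chymase, from 2.94 ± 0.827 to 13.6 ± 1.59 and 14.8 ± 1.79. Other genes of this list had lower means in these groups. Hdc went from 4.25 ± 1.15 to 1.18 ± 0.249 and 2.78 ± 0.479 CPM. Ms4a2 went from 3.51 ± 1.37 to 1.22 ± 0.331 and 0.503 ± 0.265 CPM. The 9 mast cell and basophil markers summed to at most 17.1 CPM in any library.

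For MYB and GFI1 the lists were small. Of 3 tested MYB targets, Myc and Ccnb1 fell with ETV6 WT (-0.75 and -0.88) and with I209S P214L (-0.82 and -0.92), and the anti-apoptotic gene Bcl2 rose with ETV6 WT (0.18, adjusted p = 0.01934 in edgeR). With P214L, where Myb rose too, none of the 3 passed the test. Of 5 tested genes that GFI1 proteins repress, Id2 rose (1.31 and 1.25) and Id1 fell (-1.66 and -1.74) with ETV6 WT and I209S P214L. With P214L 2 rose, Id2 (0.41) and Csf1 (from 19.8 ± 2.50 to 44.0 ± 9.31 CPM). Of the 9 corepressors of GFI1 proteins, 2 were higher and 2 lower with ETV6 WT, 1 lower with P214L, and 2 higher and 1 lower with I209S P214L. Hdac2 fell with ETV6 WT and I209S P214L (-0.68 and -0.74) and Rcor3 rose (0.50 and 0.60).

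Of 14 tested blood factors outside the families above, 6 were higher and 5 lower with ETV6 WT, 4 higher and 1 lower with P214L, and 6 higher and 6 lower with I209S P214L. The shares of all tested genes called were 37.7%, 5.08% and 41.5% in the same order. Hhex, a homeobox factor of early progenitors, was at 76.1 ± 3.14, 32.6 ± 3.28, 69.3 ± 2.24 and 24.4 ± 5.46 CPM over the 4 groups. Ikzf2, an Ikaros-family factor, was at 196 ± 23.2, 296 ± 38.9, 275 ± 8.14 and 273 ± 7.99 CPM and rose with all 3 constructs (0.59, 0.48 and 0.47, adjusted p = 5.244e-05, 0.003578 and 0.0004096 in edgeR).

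Genes with patterns like the members were sought among 9417 protein-coding genes with a mean of at least 5 CPM, by Pearson's r of log2 CPM over the 12 libraries, which share the 4 groups. Lmo2 was most like Myct1, Lcp2 and Plch1 (r = 0.99 for each). Ube2o came first for both Tal1 (r = 0.99) and Gata2 (r = 0.98), and Tal1 itself was the third for Gata2 (r = 0.98). Myb was most like Arel1, Pqlc3 and Cd200r1 (r = 0.98 to 0.99), Runx1 like Tnrc18 and Edem1 (r = 0.97 to 0.98), and Gata1 like Ccdc85c, Wfikkn2 and Paip2b (r = 0.94 to 0.96). Cebpb was like Ehmt2 and Ywhag (r = 0.96 for each) and Gfi1b like Gramd4, Ascc2 and Sec61a1 (r = 0.91 to 0.93).

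**Figure D5:**
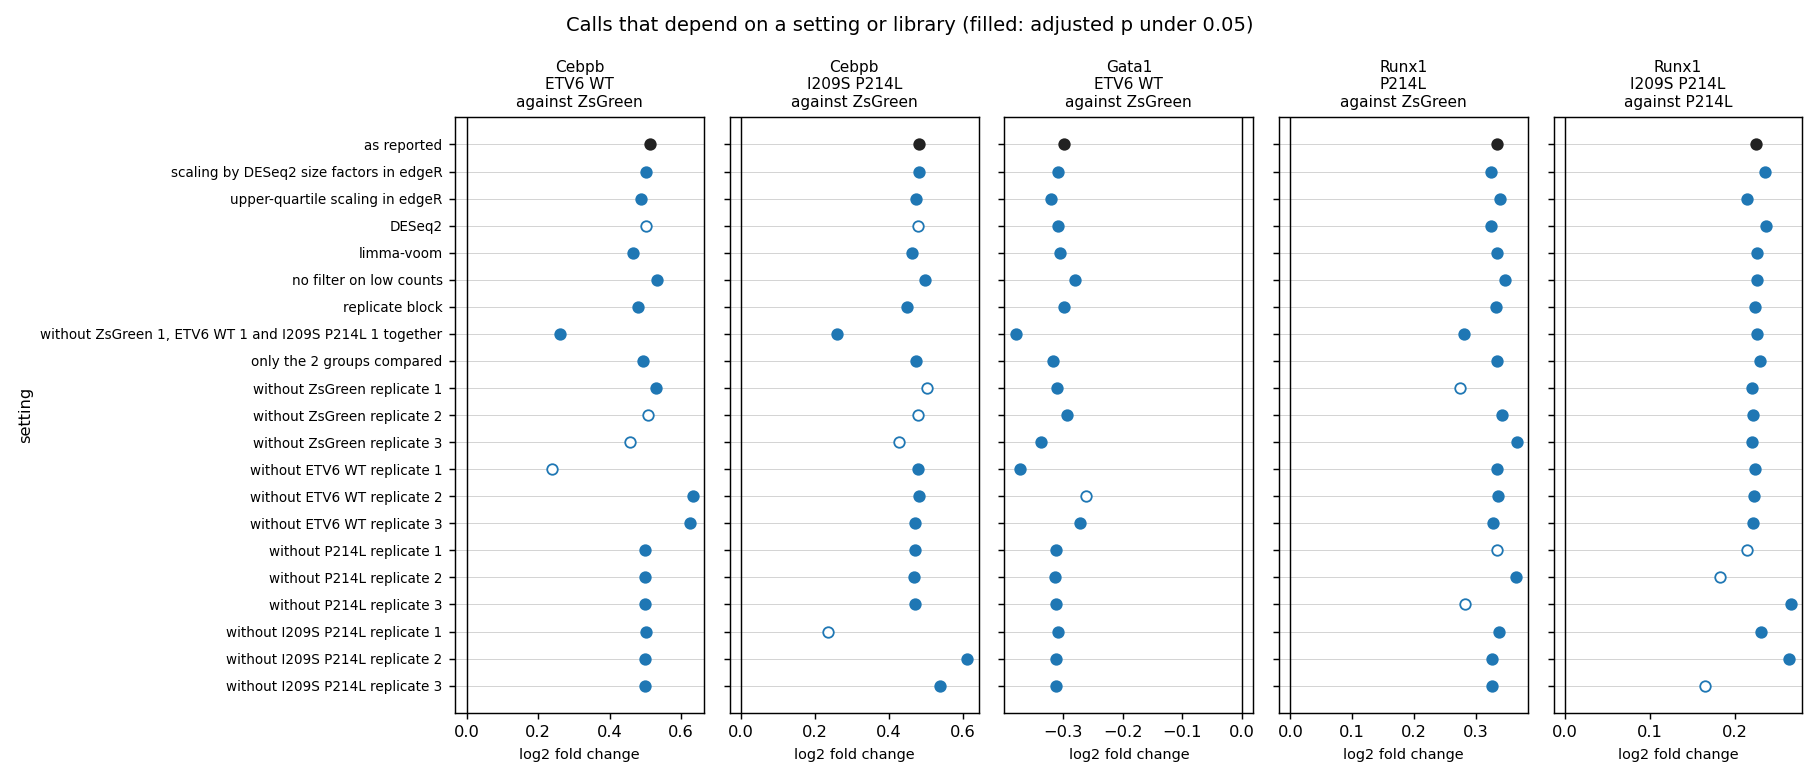
Log2 fold change (x axis) of the 5 called differences that missed the threshold under at least 1 alternative, in each setting (y axis); filled points have an adjusted p under 0.05. Cebpb drops to 0.24 without ETV6 WT 1 or without I209S P214L 1, while the other 3 keep their sign with open points for 1 to 3 left-out libraries.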

How the data were processed

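RNA of 12 Ba/F3 libraries was sequenced after poly-A selection, per the labels' protocols. Reads were aligned to mm39 with HISAT2 2.0.5 and counted per gene with featureCounts 1.5.0-p3, per the submitters' processing notes. The deposited table holds raw counts and, per the file headers, FPKM and gene lengths in bases. It also holds the authors' deposited log2 fold changes, p-values and adjusted p-values, with which the calls and signs here were the same in 48 of 48 pairs of tested member and comparison. The protocol describes directional and non-directional libraries, so strandedness is not known.

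Counts were analysed with edgeR 4.0.16 in R 4.3.3: filterByExpr left 14794 genes, TMM gave the scaling, and the quasi-likelihood fit took all 12 libraries with a mean for each of the 4 groups. P-values were adjusted by Benjamini-Hochberg over all tested genes in each of 6 comparisons, and a gene was called at an adjusted p under 0.05. The alternatives were other scalings, DESeq2 1.42.0, limma-voom (limma 3.58.1), no filter, only the groups compared, a replicate block and left-out libraries.

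The members, gene lists and tests were chosen with earlier results of these data known. Named genes were the members, 8 partner genes, the 2 genes of smallest adjusted p per list and comparison, and the 3 genes most like each member. Tcf3, Tcf4, Tcf12 and Lmo4, outside this rule, were chosen after their values were seen. A few genes that the rule names are not reported here.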

Additional observations from a re-analysis of the deposited data

How the results depend on the processing

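Over 20 alternatives, 21 of the 26 called pairs of member and comparison kept their direction and their call. The 5 that lost it at least once were Cebpb against ZsGreen with ETV6 WT and with I209S P214L, Gata1 with ETV6 WT, Runx1 with P214L, and Runx1 between I209S P214L and P214L. DESeq2 ended the Cebpb calls (0.50, adjusted p = 0.07417, and 0.48, adjusted p = 0.0874). The count of members called between P214L and ZsGreen was 1 to 2 when 1 library was left out, with 1 without ZsGreen 1, P214L 1 or P214L 3. Cebpb gained a call without the filter between P214L and ETV6 WT (-0.41) and between I209S P214L and P214L (0.38), and with only these last 2 groups fitted (0.38). Gfi1b gained one without the filter against ZsGreen with ETV6 WT (0.25) and between P214L and ETV6 WT (-0.26), and with only I209S P214L and P214L fitted (0.22).

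Values that changed sign were all of differences not called. Without ZsGreen 1, ETV6 WT 1 and I209S P214L 1 together, Gfi1b was 0.040 between P214L and ZsGreen, and between I209S P214L and ETV6 WT Gata1 was 0.018, Myb -0.0092 and Gfi1b 0.066. With 1 library left out, the values between I209S P214L and ETV6 WT ran from -0.10 to 0.0093 for Tal1, -0.11 to 0.0049 for Gata1, -0.068 to 0.14 for Gata2, -0.041 to 0.060 for Myb, -0.27 to 0.24 for Cebpb and -0.10 to 0.081 for Gfi1b. Between P214L and ZsGreen they ran from -0.017 to 0.15 for Gata1 and from -0.096 to 0.034 for Gfi1b. The cause was not tested.

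Over all genes, P214L against ZsGreen gave 751 calls, 1188 with DESeq2 and 369, 489 and 390 without P214L 1, 2 and 3. I209S P214L against ETV6 WT gave 5, 22 with DESeq2, 3 with limma-voom, 38 without the filter, 3 with only these groups fitted, 8 without the 3 libraries together, and 1 without ETV6 WT 2, ETV6 WT 3, I209S P214L 2 or I209S P214L 3. The share of higher genes among these calls went from 40% to 50% with the other scalings.

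Replicate numbers paired the libraries at most in part. Deviations of same-numbered libraries correlated at -0.061 to 0.528, over 0.1 in 2 of 18 pairs, and 8 of 12 libraries matched their own number best. These 2 pairs were the first (0.528) and the third (0.254) libraries of ETV6 WT and I209S P214L. Deviations of libraries with other numbers correlated at -0.392 to 0.161. The cause of the likeness was not tested. With the replicate block Cebpb passed the test between P214L and ETV6 WT (-0.37, adjusted p = 0.02354 in edgeR) and between I209S P214L and P214L (0.34, adjusted p = 0.0336), and no other member changed its call.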
